A study of Mus musculus with 69 samples.

Results

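Gene expression in the first segment of the proximal tubule, called PT-S1, was compared 72 h after unilateral nephrectomy (UNx), in which 1 kidney is removed by surgery, with that segment 72 h after a sham operation. The comparison took every library of the PT-S1 72 h table, which is 24 of the 69 samples of the series. It holds 12 libraries of 5 sham mice and 12 of 5 UNx mice, with 2 or 3 for each mouse. Per the labels, all were wild-type male C57BL/6 mice from Taconic that were 7 weeks old, with no transgene or drug in either group. The tubules were dissected by hand, and cDNA was made from polyA RNA with a SMART-Seq V4 low-input kit. The values are TPM, a measure per transcript length that sums to the same total in every library. The mean over the libraries of an animal was the replicate, so n = 5 in each group. Values with ± are means with their SD over the 5 animals of a group, unless another n is given, and p-values called limma p are unadjusted.

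The proximal tubule reabsorbs most of the filtered sodium, glucose, amino acids, phosphate and protein, and its cells run mainly on fatty acid oxidation. When a kidney is lost, the nephrons of the other kidney receive more filtrate and grow, mostly by enlargement of their cells and to a lesser degree by division. Dividing cells copy their DNA in S phase and then express a further set of genes for the spindle, the kinetochore and cytokinesis, many of which are held silent in resting cells through elements in their promoters.

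Several libraries stood apart, and their values come before the results. In 2 UNx libraries, the second libraries of UNx animals 1 and 2, the median correlation of log2(TPM + 1) with the other libraries was 0.905 and 0.919, against 0.979 to 0.989 in the other 22. These libraries had 9247 and 9632 genes with at least 1 TPM, while the sham libraries had 11199 to 12494 and the other UNx libraries 11198 to 11954. Cytosolic ribosomal protein genes took 3.13% and 3.20% of their TPM, against 0.893% to 1.62% elsewhere. Summed TPM of 10 markers of proximal tubule S1 and S2 was 2018 and 2128, against 6841 to 17036 in sham and 13921 to 17236 in the other UNx libraries. Counts over gene lists and most values of single genes are therefore given with all libraries and, as "without the low libraries", with the first library alone standing for UNx animals 1 and 2.

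Sham libraries were uneven as well. Mitochondrially encoded genes took 16.0%, 19.6% and 13.7% of TPM in the second library of sham animal 1 and both libraries of sham animal 3, whose S1 and S2 marker sums were 7737, 7355 and 6841 TPM. Averaged by animal, genes at or over 1 TPM numbered 11894 ± 285 in sham and 11261 ± 568 in UNx, a difference of -632.6 with an exact permutation p of 0.0556 (two-sided, 0.222 adjusted over 4 measures, where 0.00794 is the smallest possible p). The mitochondrial share differed by -2.77 percentage points (exact permutation p = 0.317), and by -0.940 without sham animal 3.

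**Figure D1:**
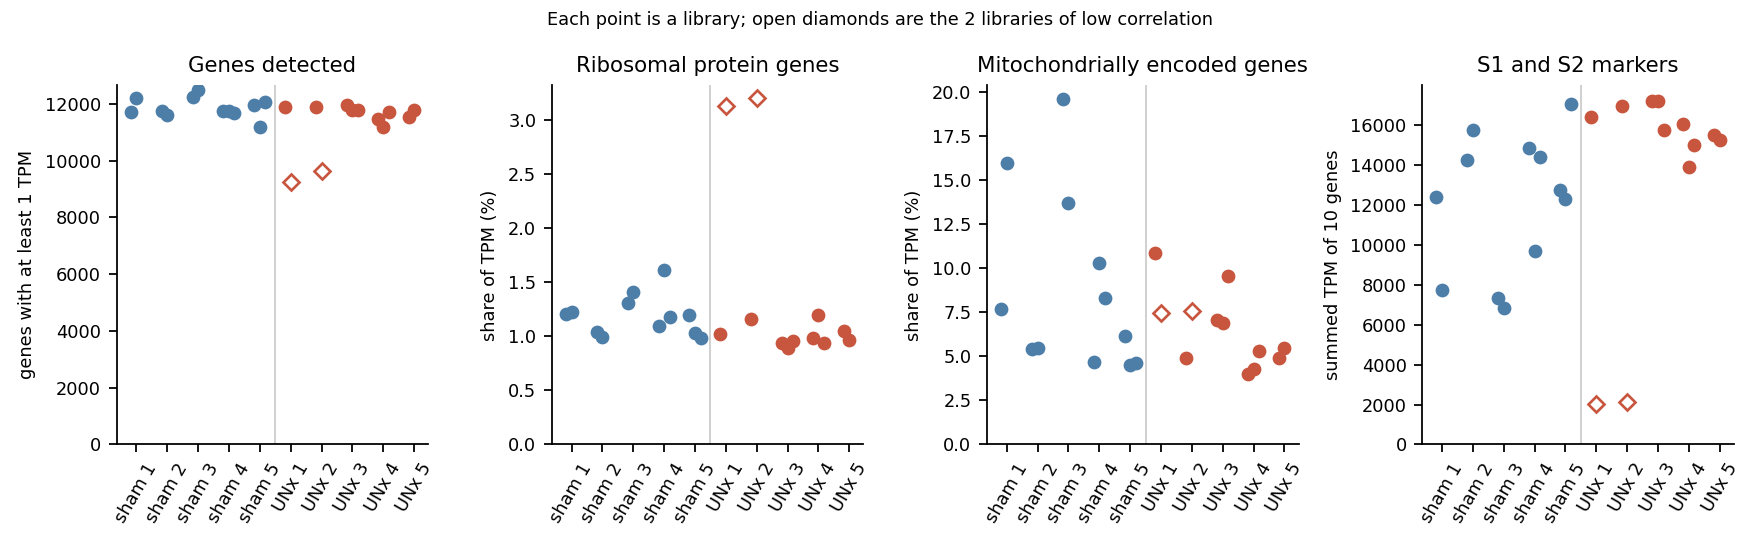
Genes with at least 1 TPM, ribosomal protein share of TPM, mitochondrially encoded share of TPM and summed TPM of S1 and S2 markers, with 1 point for each library of the 10 animals. Open diamonds are the 2 UNx libraries of low correlation, which have 9247 and 9632 genes and marker sums of 2018 and 2128 TPM.

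The dissected tissue carried the labelled segment's markers. Slc34a1, the phosphate transporter of the apical membrane, was 7385 ± 2231 TPM in sham and 8344 ± 2058 in UNx, and Slc5a2, which takes up glucose in the early proximal tubule, was 2566 ± 660 and 2758 ± 871 TPM. Of the 10 S1 and S2 markers, 0 had a limma p under 0.05 in either direction with all libraries, while 6 were higher and 0 lower without the low libraries, Slc34a1 and Slc5a2 among them (limma p = 0.0185 and 0.0193). Markers of the later S3 segment summed to 12.9 to 837 TPM in sham and 17.1 to 220 in UNx animals, and 1 library of sham animal 5 reached 2216 TPM. Sums by animal, sham then UNx, were 123 to 306 and 60.2 to 260 TPM for 8 endothelial markers, 12.6 to 85.3 and 9.46 to 64.8 TPM for 9 macrophage markers and 2.22 to 13.7 and 1.23 to 48.0 TPM for 9 fibroblast and mural cell markers. Principal cell markers reached 9.69 TPM at most, and lymphocyte markers 0.53 TPM. Intercalated cell markers summed to 3.485 to 20.8 TPM in sham and 1.86 to 2.78 in UNx, with no overlap, or up to 3.74 TPM in UNx without the low libraries. Of these, Atp6v1g3, a subunit of the proton pump named after its values were seen, was 2.65 ± 2.22 and 0.261 ± 0.2495 TPM (limma p = 0.00528, and 0.00285 without the low libraries). Thick ascending limb markers summed to 8.53 to 18.4 TPM in sham and 8.42 to 10.7 in UNx animals except UNx animal 2, which had 42.6 TPM. Without the low libraries UNx animals 1 and 2 had 16.5 and 83.7 TPM of them. Of the endothelial markers, 2 of 7 tested, Flt1 and Plvap, had a limma p under 0.05 with lower values in UNx, beside 19.1% of all genes, and 0 of 7 without the low libraries (limma p = 0.0508 and 0.0735).

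Across the transcriptome, 0 of 11886 genes (0%) passed an adjusted p of 0.05 by limma, and the smallest adjusted p was 0.237. At an unadjusted limma p under 0.05, 158 genes (1.33%) were higher and 2274 (19.1%) lower in UNx. The 5 UNx animals lay wholly above the 5 sham animals in 28 genes (0.236%) and wholly below in 633 (5.33%). The median change over all genes, UNx minus sham on the log2(TPM + 1) scale, was -0.29, so changes are also given relative to that median. Without the low libraries the median was -0.021, and 1148 genes (9.6%) were higher and 968 (8.1%) lower at p under 0.05. The groups then did not overlap in 184 higher genes (1.54%) and 194 lower genes (1.62%), and 1 of 11954 genes (0.00837%) passed.

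That gene was Dnajc12 (ENSMUSG00000036764), a J-domain co-chaperone that works with HSP70 on aromatic amino acid hydroxylases. Its levels were 175, 174, 169, 180 and 200 TPM in sham animals 1 to 5 and 96.5, 97.3, 116, 112 and 117 TPM in UNx animals 1 to 5. UNx animals 1 and 2 stood at 113 and 125 TPM without the low libraries. Every UNx animal lay below every sham animal with either set of libraries. Dnajc12 fell by 0.62 on the log2 scale without the low libraries (SE 0.08, limma adjusted p = 0.0386), and with all libraries the change was -0.75 (SE 0.15, limma adjusted p = 0.237).

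Genes of mitosis, the kinetochore and cytokinesis were higher in UNx animals, from low levels in sham. The list had 61 members, of which 37 passed the filter of a mean of 1 TPM. At an unadjusted limma p under 0.05, 26 of the 37 were higher and 0 lower, beside 1.33% and 19.1% of all genes, and the median relative change was 1.17, where all genes give 0. Of the 37, 14 had a sham mean under 1 TPM and so passed through the UNx group alone; among the other 23, 12 were higher and 0 lower, with a median of 0.85. The 24 untested members reached at most 3.72 TPM in any animal. Over the whole list, the UNx mean was above the sham mean for 59 of 61 members. Without the low libraries 41 members passed the filter, 31 were higher and 0 lower, and the median was 0.91. Of those 41, 18 had a sham mean under 1 TPM; among the other 23, 14 were higher and 0 lower, beside 9.6% and 8.1% of all genes, with a median of 0.66.

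The promoters of 4 of these genes and of Rrm2 are shown so that the elements known from such promoters can be seen in genes that the naming rule picked, 4 of the mitosis list and Rrm2 of the replication list. Lig1, a DNA ligase of replication picked by the same rule, held 0 matches at the first of 3 starts listed and is not printed. The sequences are RefSeq's for build GRCm38.p6, from 250 bases before to 50 after the transcription start, read 5′ to 3′ on the gene's strand. They lie at chr7:80294201-80294500 on the plus strand (Prc1, the first of 2 starts listed), chr7:127042371-127042670 on the minus strand (Kif22), chr11:99024140-99024439 on the minus strand (Top2a), chr5:30666636-30666935 on the plus strand (Cenpa) and chr12:24708004-24708303 on the plus strand (Rrm2). Capitals mark, on either strand, the CCAAT box, which NF-Y binds, and the CHR element in its forms TTTGAA and TTCGAA. No promoter entry was found for Esco2.
Prc1: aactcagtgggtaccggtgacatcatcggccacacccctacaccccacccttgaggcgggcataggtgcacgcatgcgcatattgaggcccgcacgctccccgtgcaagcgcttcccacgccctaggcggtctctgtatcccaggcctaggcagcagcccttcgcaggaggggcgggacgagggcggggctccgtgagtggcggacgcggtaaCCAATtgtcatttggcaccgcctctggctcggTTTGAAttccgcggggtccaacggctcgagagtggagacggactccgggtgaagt
Kif22: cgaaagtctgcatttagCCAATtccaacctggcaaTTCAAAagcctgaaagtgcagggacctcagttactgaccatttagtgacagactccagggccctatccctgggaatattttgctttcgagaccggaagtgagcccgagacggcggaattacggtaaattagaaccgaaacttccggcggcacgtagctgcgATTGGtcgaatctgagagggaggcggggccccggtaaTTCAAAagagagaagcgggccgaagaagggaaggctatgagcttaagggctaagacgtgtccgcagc
Top2a: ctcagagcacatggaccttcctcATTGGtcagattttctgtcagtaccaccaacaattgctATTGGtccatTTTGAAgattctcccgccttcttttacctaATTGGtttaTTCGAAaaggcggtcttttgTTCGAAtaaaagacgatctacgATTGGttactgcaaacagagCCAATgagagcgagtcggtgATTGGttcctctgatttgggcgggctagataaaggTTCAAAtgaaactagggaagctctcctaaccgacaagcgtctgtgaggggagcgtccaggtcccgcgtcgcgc
Cenpa: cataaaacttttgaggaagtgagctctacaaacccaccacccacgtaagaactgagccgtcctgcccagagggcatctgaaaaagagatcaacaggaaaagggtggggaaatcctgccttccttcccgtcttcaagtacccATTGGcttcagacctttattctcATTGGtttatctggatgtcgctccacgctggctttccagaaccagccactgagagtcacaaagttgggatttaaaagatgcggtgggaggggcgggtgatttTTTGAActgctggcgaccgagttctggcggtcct
Rrm2: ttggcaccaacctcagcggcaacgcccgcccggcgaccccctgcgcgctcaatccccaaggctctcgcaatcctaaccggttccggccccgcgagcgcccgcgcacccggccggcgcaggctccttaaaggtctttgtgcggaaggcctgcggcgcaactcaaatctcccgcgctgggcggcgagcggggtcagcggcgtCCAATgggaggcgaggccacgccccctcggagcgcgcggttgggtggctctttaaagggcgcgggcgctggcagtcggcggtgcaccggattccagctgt

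Top2a held 10 matches, Kif22 4, Cenpa 3, Prc1 2 and Rrm2 1. Of the 37 tested mitosis genes 30 had an entry in the promoter table; CCAAT was found in 23 of them (76.7%), where 37.4% of all 32851 promoters hold it, and TTTGAA in 21 (70.0%), where 17.9% do. TTCGAA was in 2 (6.67%), against 1.56% of all promoters. Of 30 replication promoters, 17 (56.7%) held CCAAT and 5 (16.7%) TTTGAA, while the E2F-type sequence GGCGGGAA was in 6 (20.0%) of them and in 2.19% of all promoters. Matches to TTTGGCGC, the second E2F-type sequence searched, were in 5 replication promoters (16.7%), 1 mitosis promoter (3.33%) and 0.514% of all, and TTTCGCGC was in 4 (13.3%), 1 (3.33%) and 0.323%. These are matches of letters on both strands and do not show binding. For genes of the lists only the first start listed was searched.

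Prc1 (ENSMUSG00000038943) bundles the microtubules of the central spindle. It was 0.445, 1.33, 1.43, 1.03 and 0.67 TPM in sham animals 1 to 5, and 2.12, 4.80, 3.22, 11.9 and 5.84 TPM in UNx animals 1 to 5. All 5 UNx animals lay above all sham animals, and UNx animal 4 was the highest. The change was 1.61 (SE 0.33, limma p = 0.000344, adjusted p = 0.237), or 1.90 relative to all genes. UNx animal 1 stood at 1.21 TPM without its low library, within the sham range, and the change was 1.62 (SE 0.38, limma adjusted p = 0.2002).

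Cenpa (ENSMUSG00000029177) encodes the histone H3 variant that marks centromeres. Its levels were 1.97, 0.41, 1.10, 2.31 and 1.13 TPM in sham animals 1 to 5 and 2.33, 3.02, 3.25, 8.96 and 4.79 TPM in UNx animals 1 to 5. The groups did not overlap with all libraries or without the low libraries, where UNx animals 1 and 2 had 3.35 and 4.94 TPM. The change was 1.12 with all libraries (SE 0.30, limma adjusted p = 0.237) and 1.37 without the low ones (SE 0.26, limma adjusted p = 0.125).

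Top2a (ENSMUSG00000020914), the topoisomerase that disentangles replicated chromosomes, was 0.65, 1.00, 0.355, 0.54 and 0.32 TPM in sham animals 1 to 5 and 0.80, 1.98, 1.38, 4.86 and 4.21 in UNx animals 1 to 5. Its groups were apart on the mean log2(TPM + 1) scale on which overlap was read, but in mean TPM UNx animal 1 lay under sham animal 2. Kif22 (ENSMUSG00000030677), a kinesin that moves chromosome arms, was 0.975 to 2.02 TPM in sham and 2.83 to 11.1 in UNx, with a change of 1.21 (SE 0.30, limma adjusted p = 0.237). With its low library left out, UNx animal 1 lay among the sham animals for both genes, at 0.36 and 0.99 TPM. Kif23 (ENSMUSG00000032254), the kinesin of the midbody, followed with 0.095 to 0.627 TPM in sham and 0.33 to 4.57 in UNx (limma p = 0.00291, and 0.00523 without the low libraries).

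Some further members were chosen after their values were seen. Cdk1, the kinase that drives entry into mitosis, was 0.815 to 3.28 TPM in sham and 1.81, 6.29, 5.71, 31.3 and 12.4 TPM in UNx animals 1 to 5. Birc5 (survivin, of the chromosomal passenger complex) was 1.81 to 2.87 TPM in sham and 2.70 to 32.7 in UNx, and Ube2c, the ubiquitin-conjugating enzyme of the anaphase-promoting complex, was 0.27 to 2.80 and 1.25 to 21.8 TPM. Cdc20, an activator of that complex, reached 37.8 TPM in UNx animal 4, against 4.67 TPM at most in sham. In each of these 4 genes UNx animal 4 was highest and UNx animal 1 lay within the sham range. Ccna2 (cyclin A) overlapped with all libraries, while without the low ones UNx ran from 1.56 to 9.91 TPM and sham from 0.68 to 1.51 TPM.

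The most abundant members of the list did not show this pattern. Pttg1 (securin) was 151 ± 6.53 TPM in sham and 144 ± 8.92 in UNx, and Spc25, a kinetochore subunit, 68.1 ± 13.5 and 79.5 ± 33.1 TPM (limma p = 0.694 for Spc25). Cks2, a CDK-binding subunit, was 51.6 ± 7.02 and 74.3 ± 22.1 TPM (limma p = 0.0523), but 56.6 ± 8.20 TPM in UNx without the low libraries (limma p = 0.279).

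Scored by animal as the mean log2(TPM + 1) of all 61 members, tested or not, minus the mean over all tested genes, mitosis genes stood at -2.94, -2.97, -2.90, -2.70 and -2.89 in sham animals 1 to 5. UNx animals 1 to 5 stood at -2.31, -1.84, -2.35, -1.21 and -1.86, all above the sham animals. Over the 23 tested members with a sham mean of at least 1 TPM, sham animals scored -1.83 to -1.44 and UNx animals -1.18 to 0.12. UNx animal 1 scored -3.03 over all 61 members without the low libraries, under all sham animals (-2.95 to -2.68), and the other 4 UNx animals scored -2.34 to -1.1955. By library, over the 37 tested members, the first library of UNx animal 1 scored -2.54 and its low one -1.05. The 3 libraries of UNx animal 3 ranged from -2.24 to -1.09.

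**Figure D2:**
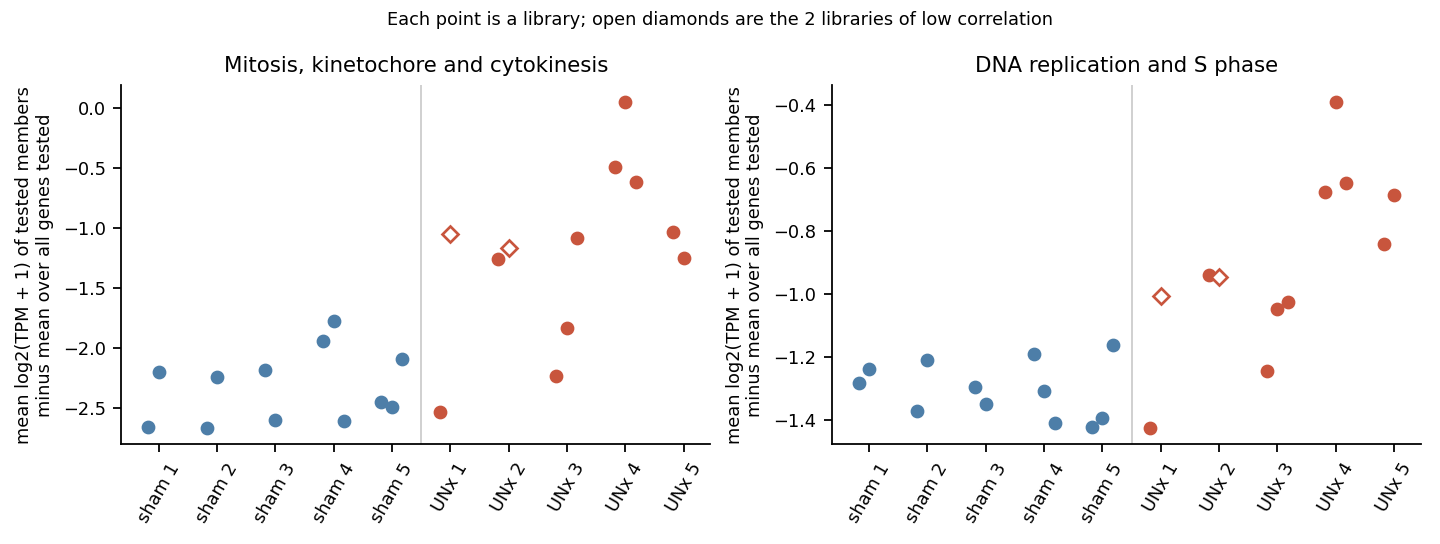
Score of each library for the mitosis list and for the replication list, the mean log2(TPM + 1) of the tested members minus that of all tested genes, by animal; open diamonds are the low libraries. In UNx animal 1 the low library scored -1.05 and the other -2.54, while UNx animals 4 and 5 lay above every sham library.

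Marker sums of other cell types are set beside these scores. UNx animal 4, with the highest mitosis score, had the lowest sums of macrophage markers (9.46 TPM) and of fibroblast and mural cell markers (1.23 TPM) of all 10 animals, and 87.7 TPM of endothelial markers. UNx animal 2 had 48.0 TPM of fibroblast and mural cell markers, UNx animal 1 31.7 TPM, and the sham animals at most 13.7 TPM. Without the low libraries UNx animals 2 and 1 had more of these markers, 69.9 and 61.7 TPM. Summed S3 markers were highest in UNx animals 4 and 5 within that group, at 220 and 93.6 TPM, while sham animal 5 had 837 TPM. The part of other cells in the mitosis values was not tested. In bulk tubules, more cells of a kind and more RNA per cell cannot be told apart.

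Genes of DNA replication had smaller differences. Of 46 members 38 were tested, 4 of them with a sham mean under 1 TPM. At an unadjusted limma p under 0.05, 4 were higher and 1 lower, beside 1.33% and 19.1% of all genes. The median relative change was 0.30. When the low libraries were left out, 13 of 39 were higher and 0 lower, beside 9.6% and 8.1% of all genes, with a median of 0.28. Rrm2 (ENSMUSG00000020649), the small subunit of ribonucleotide reductase that makes deoxyribonucleotides, was 2.17 to 4.04 TPM in sham and 1.11, 7.44, 8.82, 32.4 and 20.6 TPM in UNx animals 1 to 5. UNx animal 1 was under all sham animals and the other 4 above them (change 1.57, SE 0.57, limma p = 0.0172, adjusted p = 0.237, and p = 0.00974 without the low libraries).

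Esco2 (ENSMUSG00000022034), which acetylates cohesin in S phase, was 0.035 to 0.54 TPM in sham and 1.26 to 4.003 in UNx with all libraries, a change of 1.33 (SE 0.26, limma p = 0.000214). In their first libraries UNx animals 1 and 2 had 0.08 and 0.82 TPM; without the low libraries the groups overlapped and the change was 1.05 (limma p = 0.0146). Mcm5, a subunit of the replicative helicase chosen after its values were seen, was 2.17 to 3.80 TPM in sham. The UNx animals without the low libraries had 4.67, 8.08, 4.15, 9.45 and 9.45 TPM, all above sham (change 1.07, limma p = 0.000312, adjusted p = 0.143). Tyms, the thymidylate synthase, which is abundant here, was 78.2 ± 7.98 and 75.5 ± 23.6 TPM (sham then UNx).

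Among 17 CDK inhibitors, D-type cyclins and pocket proteins, 15 were tested, 0 were higher and 3 lower at p under 0.05, beside 1.33% and 19.1% of all genes. Cdkn1b (p27), an inhibitor of cyclin-dependent kinases that holds cells at rest, was 3.46, 2.39, 4.41, 2.94 and 3.51 TPM in sham and 1.22, 1.35, 2.58, 2.53 and 1.75 TPM in UNx animals. The groups overlapped only through sham animal 2, and the change was -0.61 (limma p = 0.0081, adjusted p = 0.237). It was -0.74 without the low libraries (limma p = 0.00704, adjusted p = 0.209). E2f4, the repressive E2F, was 20.4 TPM in sham and 14.4 in UNx, and 18.0 TPM without the low libraries (limma p = 0.0206 and 0.0699).

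The Id genes encode helix-loop-helix proteins that block bHLH transcription factors and are known targets of BMP signalling. Id3 (ENSMUSG00000007872) was 118, 120, 183, 175 and 149 TPM in sham animals 1 to 5 and 68.4, 22.8, 92.6, 56.4 and 52.2 TPM in UNx animals 1 to 5. Its change was -1.47 (SE 0.33, limma p = 0.000684, adjusted p = 0.237), and -1.33 without the low libraries (SE 0.23, limma p = 8.48e-05, adjusted p = 0.0884). Id4 (ENSMUSG00000021379) was 5.41, 7.66, 8.82, 4.55 and 4.66 TPM in sham and 1.87, 0.905, 2.76, 2.34 and 1.75 TPM in UNx animals. It had a change of -1.33 (SE 0.23, limma p = 7.25e-05), and -1.11 without the low libraries (SE 0.19, limma adjusted p = 0.0884). For both genes every UNx animal was under every sham animal with and without the low libraries.

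The other Id genes had smaller differences. Id1 was 17.4 to 43.6 TPM in sham and 6.995 to 22.6 in UNx (change -0.77, limma p = 0.028, and 0.0151 without the low libraries), with overlapping groups, and Id2 was 716 ± 45.0 and 580 ± 114 TPM. Of the 35 BMP and TGF-beta genes 24 were tested. With all libraries 0 were higher and 6 lower, beside 1.33% and 19.1% of all genes, with a median relative change of -0.06. Without the low libraries 4 were higher and 3 lower, beside 9.6% and 8.1% of all genes. The signal transducers Smad1 and Smad5 were 7.17 and 4.77 TPM, and 7.99 and 5.75 TPM, with all libraries. In UNx without the low libraries they were 5.89 and 7.33 TPM, with limma p = 0.0835 and 0.557. Endothelial cells also express Id1 and Id3. With all libraries the endothelial marker sum was lowest in UNx animals 1 and 2 (60.2 TPM each). It was 260 TPM in UNx animal 3, which had the highest Id3 of the UNx group. Without the low libraries UNx animals 1 and 2 had 90.5 and 96.5 TPM, and UNx animal 4 was lowest, at 87.7 TPM. The part of endothelial cells in the result was not tested.

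**Figure D3:**
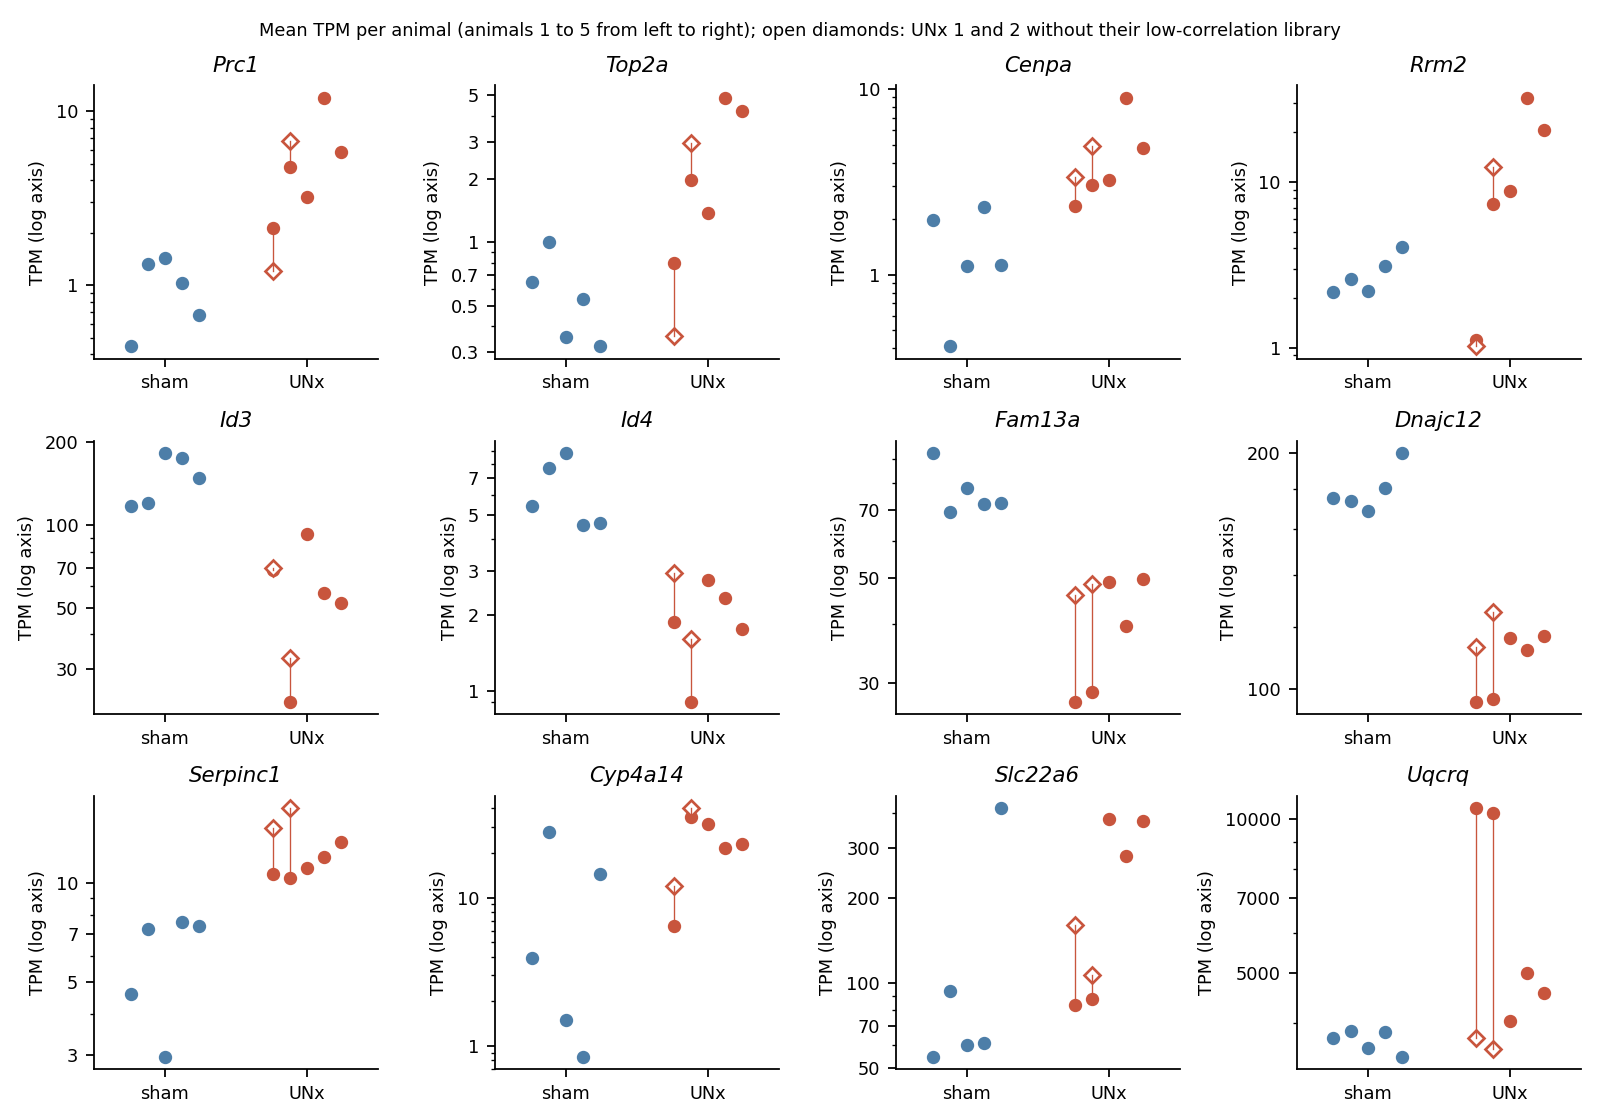
TPM (log axis) of 12 named genes in each sham and UNx animal; open diamonds give UNx animals 1 and 2 without their low library. Cenpa and Serpinc1 lie higher in all UNx animals and Id3, Id4, Fam13a and Dnajc12 lower, with either set of libraries, while Uqcrq in UNx animals 1 and 2 drops from 10494 and 10288 TPM into the sham range when the low library is left out.

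PPAR-alpha is the nuclear receptor that switches on fatty acid oxidation. Of 39 PPAR-alpha targets and fatty acid oxidation genes 38 were tested. At p under 0.05, 3 were higher and 2 lower, beside 1.33% and 19.1% of all genes, and the median relative change was 0.21. Without the low libraries 9 were higher and 0 lower, beside 9.6% and 8.1% of all genes, with a median of 0.26. Cyp4a14 (ENSMUSG00000028715), a fatty acid omega-hydroxylase whose reads may be split with its neighbouring copies, was 3.93, 27.6, 1.51, 0.847 and 14.4 TPM in sham animals. It was 6.39, 34.7, 31.3, 21.4 and 23.0 TPM in UNx animals (change 1.91, SE 0.59, limma p = 0.00661, adjusted p = 0.237). On the mean log2(TPM + 1) scale on which overlap was read, the groups overlapped with all libraries and not without the low ones. The change was then 2.23 (limma p = 0.000666, adjusted p = 0.191). In mean TPM the groups still overlapped, as sham animal 2, at 27.6 TPM, lay above the UNx values of 21.4 and 23.0 TPM. Libraries of an animal differed: those of sham animal 2 had 53.3 and 1.86 TPM.

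Fabp1, the fatty acid binding protein, was 7.68 ± 3.73 TPM in sham and 20.0 ± 12.7 in UNx, but 11.3 ± 3.01 TPM without the low libraries (limma p = 0.0157 and 0.0734). Acaa2, the mitochondrial thiolase of beta-oxidation, was 1053 ± 206 TPM in sham and 1294 ± 227 in UNx (limma p = 0.336). It was 1531 ± 211 TPM without the low libraries, with no overlap with sham (limma p = 0.00183, adjusted p = 0.201). Ppara itself was 51.1 TPM in sham and 39.1 in UNx (limma p = 0.0353), or 44.8 TPM without the low libraries (limma p = 0.113).

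Of 25 sterol synthesis and uptake genes, all tested, 0 were higher and 1 lower, beside 1.33% and 19.1% of all genes, with a median of 0.14. Without the low libraries 8 were higher and 0 lower, beside 9.6% and 8.1% of all genes, with a median of 0.29. Ebp, the sterol isomerase, was 54.3 ± 20.7 TPM in sham and 69.8 ± 11.9 in UNx (limma p = 0.121, and 0.0449 without the low libraries). Fatty acid synthesis genes numbered 12 tested, with 0 in either direction and 4 higher without the low libraries, beside 9.6% of all genes.

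Values of the respiratory chain and the ribosome turned on the low libraries. Of 82 nuclear-encoded respiratory chain genes 78 were tested. With all libraries 16 were higher and 1 lower, beside 1.33% and 19.1% of all genes, and the median relative change was 0.64. Without the low libraries 4 were higher and 0 lower, beside 9.6% and 8.1% of all genes, and the median was 0.04. Uqcrq, a subunit of complex III, was 3432 to 3849 TPM in sham. UNx animals 1 and 2 had 10494 and 10288 TPM with their low libraries and 3740 and 3556 TPM without, and UNx animals 3 to 5 had 4033 to 5010 TPM. Cox5b, of complex IV, likewise stood at 4712 and 4723 TPM with and 1974 and 2144 TPM without, against 1741 to 2121 TPM in sham.

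Of 89 cytosolic ribosomal protein genes 82 were tested. With all libraries 0 were higher and 8 lower, beside 1.33% and 19.1% of all genes. Without the low libraries 0 were higher and 26 lower, beside 9.6% and 8.1% of all genes, and 1 of 82 lay above the median of all genes. The median relative change of the ribosomal protein genes was 0.34 with all libraries and -0.21 without the low ones. Rplp0, of the ribosomal stalk, was 536 ± 16.7 TPM in sham and 410 ± 61.4 in UNx (limma p = 0.0172), and 463 ± 41.2 TPM without the low libraries (limma p = 0.0224). Many ribosomal protein genes have near-identical pseudogene copies, so single values are uncertain.

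Transporters differed little with all libraries and lay higher without the low ones. At p under 0.05, 0 of 14 amino acid transporters, 0 of 18 organic anion and cation transporters tested and 0 of 16 transporters of sodium, protons, bicarbonate and water were higher, and without the low libraries 8, 10 and 11, beside 9.6% of all genes. The median relative changes were 0.32, 0.29 and 0.33 with all libraries and 0.51, 0.48 and 0.51 without. With every library except those of sham animal 3 they were 0.12, 0.16 and 0.175. Of 12 phosphate and vitamin D genes 5, and of 7 glucose transport genes 4, were higher without the low libraries, beside the same 9.6%.

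Slc34a1 was 6237, 9559, 4153, 7786 and 9189 TPM in sham animals 1 to 5 and, without the low libraries, 10881, 11074, 10555, 9398 and 9473 TPM in UNx animals. Slc22a8 (OAT3), an organic anion exchanger of the basolateral membrane, was 152 to 364 TPM in sham. In UNx it was 447, 476, 577, 361 and 473 TPM without the low libraries (change 0.77, limma p = 0.00468, adjusted p = 0.209). Slc22a6 (OAT1) was 54.6, 93.1, 60.1, 61.0 and 415 TPM in sham and 83.2, 87.2, 379, 280 and 374 TPM in UNx animals, so that sham animal 5 lay above every UNx animal.

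Slc5a10, a mannose and fructose transporter, was 0.283 to 82.0 TPM in sham and 8.30 to 52.4 in UNx (relative change 2.11, limma p = 0.0206, and 0.00491 without the low libraries). Its highest value was again in sham animal 5, the animal with 309 TPM of Slc7a13 and 332 TPM of Acsm3, both S3 markers. Car14, a membrane carbonic anhydrase, was 372 ± 81.8 TPM in sham and 529 ± 60.6 in UNx without the low libraries (limma p = 0.00412), and Slc7a7, a basolateral amino acid exchanger, 401 and 558 TPM (limma p = 0.0201). The lowest sham values of Slc34a1 and Slc22a8 were those of sham animal 3, both of whose libraries had over 12% of TPM in mitochondrially encoded genes; the part of library quality in the transporter values was not tested. With the 3 sham libraries of that kind left out as well, 699 genes were higher and 566 lower at p under 0.05, a setting chosen after the data were seen.

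Outside these lists, some of the genes picked by the naming rule were apart in both sets of libraries. Serpinc1 (ENSMUSG00000026715), the gene of antithrombin, was 4.6, 7.22, 2.96, 7.58 and 7.38 TPM in sham animals and 10.6, 10.3, 11.1, 12.0 and 13.3 TPM in UNx animals. UNx animals 1 and 2, without the low libraries, stood at 14.7 and 16.8 TPM. The change was 0.90 with all libraries (SE 0.25, limma adjusted p = 0.237) and 1.199 without (limma p = 0.000254, adjusted p = 0.140). Guca2b, the gene of uroguanylin, a peptide that promotes sodium excretion, averaged 1195 ± 204 TPM in sham and 2220.2 ± 961 in UNx, or 1558 ± 294 TPM without the low libraries (limma p = 0.00651 and 0.0218). Vma21, an assembly factor of the proton pump V-ATPase, was 20.6 ± 4.06 and 28.9 ± 3.94 TPM (limma p = 0.0283, and 0.0275 without the low libraries).

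Fam13a (ENSMUSG00000037709), whose protein carries a RhoGAP domain, was 92.5, 69.3, 78.0, 71.9 and 72.5 TPM in sham animals and 27.3, 28.6, 49.2, 39.6 and 49.9 TPM in UNx animals. Every UNx animal was lower than every sham animal, also without the low libraries, where UNx animals 1 and 2 had 46.1 and 48.8 TPM. The change was -1.17 (SE 0.27, limma adjusted p = 0.237), and -0.70 without the low libraries (SE 0.11, limma p = 4.2e-05, adjusted p = 0.0884). Slc25a36, a mitochondrial pyrimidine nucleotide carrier, Bicc1, an RNA-binding protein of renal tubules, and the zinc finger gene Zfp821 averaged 37.7, 39.6 and 12.8 TPM in sham, 21.1, 24.5 and 7.498 TPM in UNx and 26.0, 29.9 and 9.11 TPM in UNx without the low libraries. Their groups did not overlap in either set.

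A further set was apart only with all libraries. It included Cklf, a chemokine-like factor (6.21 TPM in sham, 11.5 TPM in UNx and 9.30 TPM without the low libraries), Cnih4, of protein export from the endoplasmic reticulum (74.6, 116 and 92.6 TPM), and Slirp, which stabilises mitochondrial mRNA (471, 813 and 529 TPM). Cd63, a tetraspanin of late endosomes, was 2475 ± 593, 3419.8 ± 197 and 3246 ± 314 TPM. Lower in the same sense were Pde1a, a calcium-dependent phosphodiesterase (145, 73.2 and 92.1 TPM), Lad1 (65.1, 38.2 and 47.8 TPM), Fndc4 (7.44, 3.81 and 4.78 TPM) and Dab2, an adaptor of megalin endocytosis (512 ± 45.4, 340 ± 64.7 and 418 ± 57.4 TPM). For Dab2 the limma p was 0.00514 with all libraries and 0.0211 without the low ones.

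Growth pathways differed in their counts. Of 27 mTOR pathway genes 24 were tested, 0 were higher and 10 lower, beside 19.1% of all genes, and 3 were lower without the low libraries, beside 8.1%. Eif4ebp1, the translation repressor that mTOR inhibits, was 21.8 ± 2.48 TPM in sham and 15.6 ± 2.11 in UNx (limma p = 0.00889), or 15.0 ± 2.24 TPM without the low libraries (limma p = 0.000732, adjusted p = 0.191), with no overlap in either set. Pdpk1, the kinase upstream of AKT, averaged 18.4 and 12.1 TPM (limma p = 0.00283), and 14.6 TPM without the low libraries (limma p = 0.0292). Of 28 genes of insulin, IGF and EGF receptor pathways 20 were tested. With all libraries 0 were higher and 2 lower, beside 1.33% and 19.1% of all genes, with a median relative change of 0.04. Without the low libraries 2 were higher and 1 lower, beside 9.6% and 8.1%, with a median of 0.18. Insr, the insulin receptor, was 16.7 ± 2.69 TPM in sham and 9.83 ± 3.53 in UNx (limma p = 0.00538, and 0.0158 without the low libraries), with overlapping groups, and Pik3ca 21.2 and 14.6 TPM (limma p = 0.00554, and 0.1004 without the low libraries). Ribosome biogenesis genes numbered 40, of which 15 were lower and 0 higher with all libraries, beside 19.1% and 1.33% of all genes, and 2 lower and 0 higher without the low ones, beside 8.1% and 9.6%.

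With all libraries, 0 of the tested tubular injury, heat shock, interferon response, NRF2 target and immediate early genes were higher at p under 0.05, beside 1.33% of all genes. Among 17 tested targets of ATF4, 1 was higher and 1 lower, beside 1.33% and 19.1% of all genes. Without the low libraries 2 of 19 were higher and 0 lower, beside 9.6% and 8.1%. Of 20 tubular injury genes 13 were tested, and 1, the keratin gene Krt18, was lower in both sets of libraries (3.53 ± 2.15 and 1.53 ± 0.888 TPM; limma p = 0.033, and 0.0444 without the low libraries). Spp1 (osteopontin) was 2043 ± 804 and 1984 ± 429 TPM. Of 22 heat shock and chaperone genes 0 were higher and 6 lower, beside 1.33% and 19.1% of all genes. Without the low libraries 6 were higher and 4 lower, beside 9.6% and 8.1%. Hspa1a, the inducible HSP70, was 8.10, 5.54, 17.3, 1.18 and 5.49 TPM in sham and 0.73 to 2.69 in UNx animals (limma p = 0.0101, and 0.0323 without the low libraries), so that only sham animal 4 lay within the UNx range, and its near-identical copy Hspa1b shares its reads. Of 24 interferon response genes 4 were lower, of 22 NRF2 targets tested 1 and of 19 immediate early genes tested 6, beside 19.1% of all genes. When the low libraries were left out, 2 of 24, 1 of 22 and 1 of 20 were lower, beside 8.1%, and 4 NRF2 targets were higher, beside 9.6%.

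Some clock genes that peak opposite to Dbp were lower. Of 6, 4 were lower and 0 higher at p under 0.05, beside 19.1% and 1.33% of all genes, with a median relative change of -0.41. In the set without the low libraries 3 were lower, beside 8.1%, with a median of -0.31. Scored by animal like the mitosis genes, over the 6, UNx animals 4 and 5 (-1.26 and -1.25) lay within the sham range of -1.44 to -0.88. Arntl (BMAL1), a core activator of the clock, was 11.4, 8.02, 9.61, 6.79 and 8.21 TPM in sham and 2.37, 5.07, 2.98, 8.18 and 5.36 TPM in UNx animals (limma p = 0.00512, and 0.0365 without the low libraries). UNx animal 4 overlapped the sham group. Nfil3 and Npas2 averaged 9.55 and 5.53 TPM in sham and 4.68 and 2.80 TPM in UNx (limma p = 0.00732 and 0.00736, and 0.0331 and 0.0127 without the low libraries). Dbp, which peaks at the other phase, was 12.3 TPM in sham and 18.4 in UNx (limma p = 0.0969), or 20.3 TPM without the low libraries (limma p = 0.0216). The list in phase with Dbp had 10 members, 8 of them tested. With all libraries 0 were higher and 0 lower at p under 0.05, beside 1.33% and 19.1% of all genes. Without the low libraries 1 was higher and 0 lower, beside 9.6% and 8.1%. Its median relative change was 0.22 and 0.30. The time of day of dissection is not given in the sources used here, and its part in the result was not tested.

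**Figure D4:**
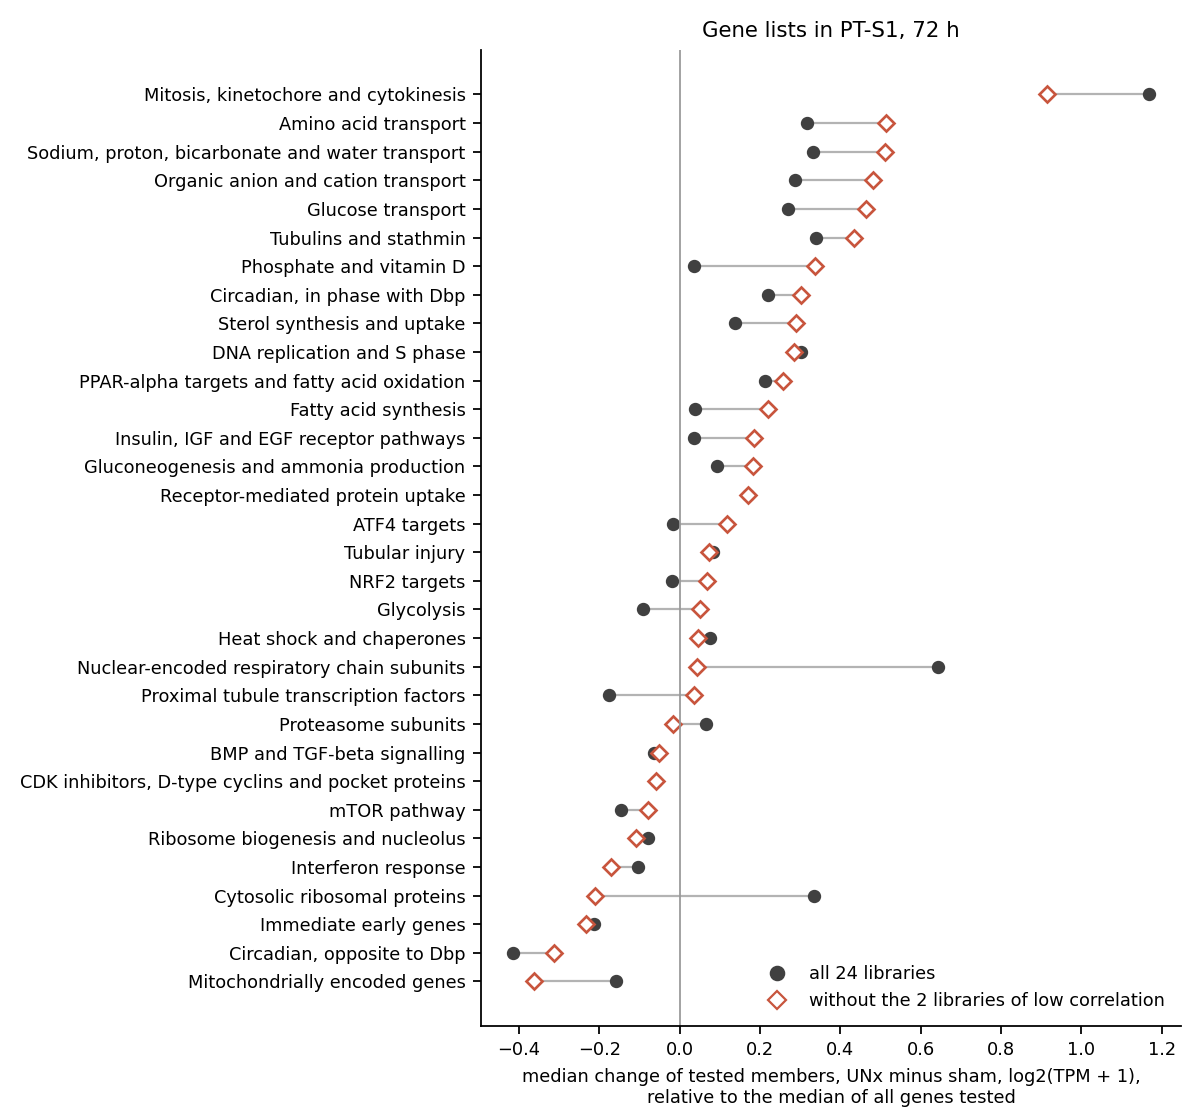
Median change of the tested members of 32 gene lists, UNx minus sham on the log2(TPM + 1) scale relative to the median of all genes, with all 24 libraries and without the 2 low libraries. Mitosis genes stand at 1.17 and 0.91, respiratory chain genes move from 0.64 to 0.04 and ribosomal protein genes from 0.34 to -0.21.

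The PT-S1 72 h effect was set beside that at 24 h in PT-S1 (3 sham and 4 UNx animals) and that in cortical collecting duct (CCD) at 72 h (4 and 4 animals), each time by a limma model of 4 groups that tests how far the UNx effects differ. The tables were normalized separately, and the median change over all genes was -0.29 in PT-S1 at 72 h, -0.19 in PT-S1 at 24 h and 0.01 in CCD at 72 h. Between 72 and 24 h, 0 of 11455 genes (0%) passed (smallest limma adjusted p = 0.998), while 157 genes (1.37%) had a higher and 224 (1.96%) a lower effect at 72 h at an unadjusted p under 0.05. Low libraries of each table were those with a median correlation under 0.92 within it. Which libraries of the 24 h and CCD tables this removed is not listed here. Without the low libraries of either table, 1857 genes (16.2%) had a higher and 277 (2.41%) a lower effect. Of 11474 genes 4 (0.0349%) passed, all with a higher effect at 72 h than at 24 h. These were Ranbp9, a scaffold protein (difference 2.38, SE 0.40), Mfsd12, a lysosomal cysteine transporter (1.62, SE 0.28), Nynrin (1.43, SE 0.24) and Ass1, an enzyme of arginine synthesis in the proximal tubule (1.06, SE 0.18), each with a limma adjusted p of 0.0480. Mfsd12, Nynrin and Ass1 were chosen after their values were seen. Such a difference need not be a rise at 72 h: with all libraries of the 24 h table, Ranbp9 was 25.9 TPM in sham and 6.10 in UNx animals.

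Of 18 mitosis genes tested in both PT-S1 tables, 4 had a higher effect at 72 h and 0 a lower one, beside 1.37% and 1.96% of all genes. Without the low libraries these were 6 and 0, beside 16.2% and 2.41%. The median relative change over the members tested in each table, which are not the same members, was 1.17 at 72 h and 0.26 at 24 h. At 72 h, 14 of the 37 members had a sham mean under 1 TPM and so passed the filter through UNx alone. The other 23 gave 0.85. Kif22 had a difference of 1.43 (SE 0.40, limma p = 0.00213), and 1.28 without the low libraries (SE 0.49, limma p = 0.0177). In the 24 h table Prc1 was 0.431 ± 0.150 TPM in 3 sham and 0.356 ± 0.221 in 4 UNx animals, and Top2a 0.399 and 0.244 TPM.

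PPAR-alpha targets went the other way, with 13 of 38 having a lower effect at 72 h than at 24 h and 0 a higher one, and medians of 0.21 at 72 h and 0.74 at 24 h. With the low libraries left out 7 were lower and 1 higher. Over all genes 1.96% were lower and 1.37% higher with all libraries, and 2.41% and 16.2% without the low ones. Cyp4a14 was 64.3 ± 62.1 and 473 ± 277 TPM at 24 h (n = 3 and 4 animals). The difference of its effects was -1.30 (limma p = 0.204). The means of Id4 and Id3 had the same direction at both times, with a wide spread at 24 h (n = 3 and 4 animals). There Id4 was 4.15 ± 0.765 TPM in sham and 1.70 ± 1.62 in UNx, and Id3 103 ± 66.1 and 47.9 ± 37.9 TPM. Other genes among those with the smallest p were Cnnm3, with a difference of 1.73, Lockd, a noncoding RNA next to Cdkn1b, with 1.99, and the fatty acid oxidation gene Eci1, with -0.96.

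Against CCD at 72 h, 0 of 11035 genes (0%) passed (smallest limma adjusted p = 0.179), and 67 genes (0.607%) had a higher and 963 (8.73%) a lower effect in PT-S1 at p under 0.05 (9.33% in all). Leaving out the low libraries, these were 435 (3.92%) and 518 (4.67%) of 11099, or 8.59%, and 0 passed. Of 38 replication genes 19 had a lower effect in PT-S1 and 0 a higher one, and 15 of 39 and 0 without the low libraries, with medians of 0.30 in PT-S1 and 0.75 in CCD. Of 37 mitosis genes 9 were lower and 0 higher, and 5 of 41 and 0 without the low libraries, with medians of 1.17 and 1.38. Prc1 was 6.28 TPM in sham and 21.3 in UNx animals of CCD, and its effect differed by -0.16 (SE 0.48, limma p = 0.746), while Top2a was 3.19 and 17.4 TPM, a difference of -1.11 (SE 0.44, limma p = 0.0194, adjusted p = 0.495). The log2(TPM + 1) scale understates changes of low genes, and 14 of the 37 mitosis genes had a sham mean under 1 TPM in PT-S1. How far this lowers their PT-S1 effects beside those in CCD was not tested.

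Of 24 interferon response genes 12 had a lower effect in PT-S1 than in CCD, beside 8.73% of all genes, and 6 without the low libraries, beside 4.67%. Id3 was 477 TPM in sham and 178 in UNx animals of CCD, and Id4 28.1 and 15.4 TPM, with differences of -0.04 and -0.53. Dnajc12 had a difference of -1.02 (SE 0.20, limma adjusted p = 0.179), and -0.89 without the low libraries (SE 0.15, limma adjusted p = 0.0759). Stmn1, a microtubule destabiliser, had -1.77 and -1.82, and the glycolytic Pgam1 -1.22 (limma p = 4.36e-05) and -0.76.

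**Figure D5:**
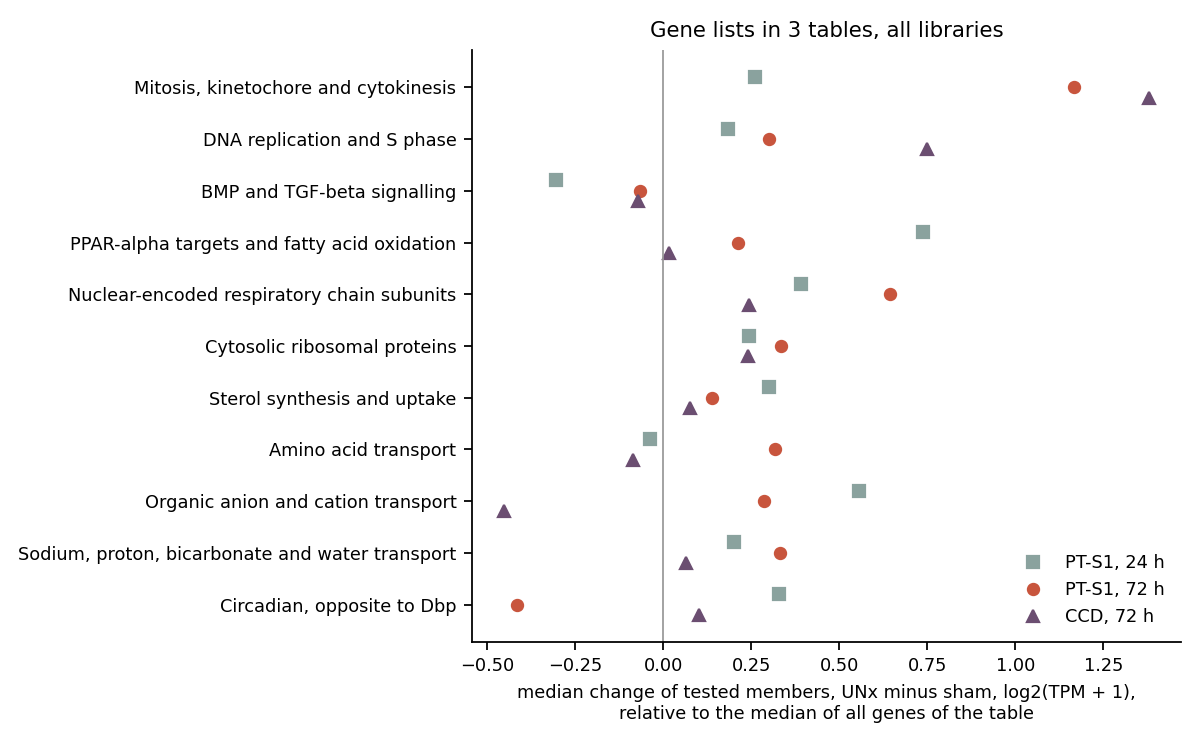
Median relative change of 11 gene lists, UNx minus sham on the log2(TPM + 1) scale, in PT-S1 at 24 h, PT-S1 at 72 h and CCD at 72 h. Mitosis genes stand at 0.26, 1.17 and 1.38 and PPAR-alpha targets at 0.74, 0.21 and 0.02. Each median is over the members tested in that table. Of the 37 mitosis genes tested in PT-S1 at 72 h, 14 passed the filter through UNx alone.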

How the data were processed

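Gene expression was measured by RNA-seq of hand-dissected tubules. The authors deposited TPM values per gene and library, which sum to 1e+06 in each library, so depth is unknown and no counting interval or detection limit was computed. Per the submitters' processing notes, STAR and RSEM 1.3.3 and the build GRCm39 were named, with no role given. The PT-S1 72 h table lists 53700 genes. Of its 24 columns, 18 matched a single sample; 6 matched the group and animal, with a library number that differs from the sample titles. No 2 columns were identical (0 pairs).

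Libraries whose titles give the same number with Sham or UNx were taken as 1 animal; nothing states that animals of the same number are paired. Values were log2(TPM + 1), averaged over the libraries of an animal, and genes with a mean of at least 1 TPM were tested. The test of UNx against sham was limma 3.58.1 (R 4.3.3) with a mean-variance trend, two-sided, with Benjamini-Hochberg adjustment over all genes tested and a threshold of 0.05. Changes on this scale understate those of low genes. The SD and n given are over animals, which are separate mice; the labels do not say more. Groups were said not to overlap on animal means of log2(TPM + 1). Library quality was compared by exact permutation tests over animals. The fits were tested on simulated data. Figures were drawn with matplotlib 3.10.9.

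The comparison, the 32 gene lists, the 12 marker lists and the rule for naming genes were chosen with earlier results of these data known. The rule named up to 12 higher and 12 lower genes by smallest p among those with at least 5 TPM in a group and no overlap, also after median-ratio scaling; of each list up to 5 tested members by p and up to 3 by level; markers of the proximal tubule; and 5 genes for each difference between effects. Alternatives were other scalings, pseudocounts, filters, replicate units and weights, a replicate block, and leaving out low-correlation libraries or single animals.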

Additional observations from a re-analysis of the deposited data

Results flagged for a closer look

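In 266 sets of 5 animals, 1 for each group of the genes checked, an animal was marked when its gap to the nearest other animal, on the log2(TPM + 1) scale, was over 0.71 of the whole range. Chance marks about 1 in 20 sets, and 6 were marked here.

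Birc5 was lowest in sham animal 2, at 1.81 TPM, where the other sham animals had 2.40 to 2.87 TPM. Slc22a6 reached 414.5 TPM in sham animal 5, against 54.6 to 93.1 TPM in the other sham animals. Vma21 was 13.4 TPM in sham animal 3 and 22.0 to 23.5 TPM in the rest of that group. Hspb1 was 2.01 TPM in UNx animal 4, with 2.99 to 3.36 TPM in the other UNx animals. Eci1 was lowest in UNx animal 1, at 173.5 TPM, against 219.9 to 237.9 TPM. Irf2bp2 was highest in sham animal 4, at 13.6 TPM, against 9.76 to 10.4 TPM.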

How the results depend on the processing

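With all libraries 0 genes passed by limma, and the same held when any of the 10 animals was left out. More passed with arrayWeights (1346), with every library as a replicate (18) and with a random effect of animal (10), and 1 passed without the low libraries, also when the 3 sham libraries with most mitochondrial TPM were left out as well (1). Those settings that treat libraries as replicates count libraries of an animal as separate. A replicate block by animal number gave 0 genes, with 167 higher and 1742 lower at p under 0.05. Deviations of same-numbered sham and UNx animals correlated at 0.25, -0.37, -0.12, -0.10 and 0.33, and 2 of 5 sham animals correlated best with their own number. So few values cannot tell whether animals of the same number were paired.

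The counts at p under 0.05 (158 higher, 2274 lower) were 878 and 657 with median-ratio scaling, 560 and 1011 with quantile normalization, 1148 and 968 without the low libraries, 1237 and 834 without them with median-ratio scaling, and 699 and 566 without the 3 sham libraries as well. Higher genes numbered 365 with no filter, 93 at a mean TPM of at least 5 and 1515 with arrayWeights. Genes without overlap (28 higher, 633 lower) numbered 203 and 167, 116 and 260, 184 and 194, 206 and 144, and 197 and 204 under the same 5 settings of both directions, and 55 and 18 higher under the 2 filters. Leaving out an animal gave 112 to 228 higher and 1065 (without UNx animal 2) to 3116 (without UNx animal 3) lower genes, and 29 to 88 higher and 657 to 1186 lower genes without overlap. Groups that do not overlap stay apart when an animal is left out. Apart from the filter, the counts without overlap can therefore only rise from 28 and 633, and they do not show stability. Leaving out the 3 sham libraries removes sham animal 3 altogether, so its counts without overlap share this limit.

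The mitosis median was 1.74 with a pseudocount of 0.1, 0.56 with 5 and 0.72 with no filter, and 0.95 (without UNx animal 4) to 1.27 when an animal was left out. The respiratory chain median was 0.16 with quantile normalization, 0.14 with arrayWeights, 0.044 without the low libraries, 0.046 without them with median-ratio scaling and 0.00092 without the 3 sham libraries as well. The BMP median was 0.03 with arrayWeights. Of the 11 list medians reported, 3 changed sign under some of 24 settings: BMP was above 0 in 2, ribosomal proteins in 20 and sterol synthesis in 23, and the other 8 kept their sign.

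For 72 against 24 h, 381 genes had p under 0.05, against 584 with median-ratio scaling, 701 with quantile normalization, 1128 with no filter, 235 at a mean TPM of at least 5, 2574 with arrayWeights and 2134 without the low libraries; 1, 376 and 4 genes passed with no filter, arrayWeights and without the low libraries. For PT-S1 against CCD, 1030 became 2019 with no filter and 2047 with arrayWeights, with 1 and 64 passing. Leaving out an animal gave 227 to 580 genes for the first and 609 to 1767 for the second, with 0 and 0 to 1 passing. With the block these counts were 397 and 812.

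In library quality, the ribosomal protein share differed by 0.253 percentage points (UNx minus sham) with all libraries and reversed to -0.163 without the low libraries. When an animal was left out, the share of the 50 most abundant genes differed by -1.98 to 0.922, genes at or over 1 TPM by -778.1 to -459.0, and the mitochondrial share by -3.83 to -0.940 (without sham animal 3). The share of the 50 most abundant genes turned positive without sham animal 1 (0.102) or 3 (0.723) and without UNx animal 3 (0.046), 4 (0.922) or 5 (0.688). The cause was not tested. Over 88 genes, those named in the text and a few more of the naming rule, changes relative to all genes kept their direction in 2056 of 2089 values, and 65 passed, 52 of them with arrayWeights. The other 33 values belong to 11 genes, whose limma p with all libraries was 0.0499 for Pgam1 and higher for the others.

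Reported relative changes of Pttg1 (0.21), Tyms (0.16), Slc5a2 (0.12), Ass1 (0.05) and Irf2bp2 (0.17) were -0.01071, -0.05991, -0.1002, -0.163 and -0.04794 with no filter. Pttg1, Irf2bp2 and Slc7a13 (-0.25 as reported) gave -0.09909, -0.08882 and 0.1991 with arrayWeights. Quantile normalization gave -0.2019 for Slc5a2, -0.04581 for Slc34a1 (0.23), -0.1603 for Spp1 (0.23) and -0.1266 for Ass1. A pseudocount of 5 gave -0.004731 for Slc5a2 and -0.06049 for Ass1. Id2 (-0.04) turned to 0.05034 with median-ratio scaling and 0.04081 with a pseudocount of 0.1, and Acsm3 (0.44) to -0.1507 on the log2 of mean TPM. Without the low libraries Pttg1 was -0.1416 and Pgam1 (-0.12) 0.07416, then -0.1395 and 0.07571 with median-ratio scaling, and Pttg1 was -0.1803 without the 3 sham libraries as well. When an animal was left out, ranges that crossed 0 were -0.1496 (without sham animal 4) to 1.233 for Acsm3, -0.06193 (without UNx animal 5) to 0.1615 for Ass1, -0.2118 to 0.02298 (without UNx animal 3) for Id2, -0.04056 (without sham animal 3) to 0.3028 for Slc5a2 and -0.8203 to 0.5059 (without sham animal 5) for Slc7a13. TPM keeps no depth, so what low genes such as Esco2 can show is not known.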
